A study of Mus musculus with 2 samples.

Results

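The colony-stimulating factor (CSF) receptor and ligand genes Csf1r, Csf1, Csf2ra, Csf2rb and Csf3r were followed in CD45-sorted cells of the mouse retina. They were taken by name, 5 of the 31053 genes in the count tables, and all 5 were present in both tables. Cells came from C57BL/6 mice perfused before the retina was digested, and single cells were captured with a 10x 3′ kit. There was 1 library labelled wildtype and 1 labelled as an Igfbpl1 knockout (Igfbpl1-/-), which differ by that allele as far as the labels say. The design text speaks of 10 knockout and 10 sex-matched wildtype mice of 8 to 10 months, but the labels tie neither a number of mice nor a deleted exon to a library. Igfbpl1 itself had 2 counts in the library labelled wildtype and 29 in the library labelled knockout, which goes against the labels, so both are called by their labels throughout. After filtering, 2695 and 1761 cells were kept, and 1 barcode occurred in both tables.

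Csf1r encodes the receptor tyrosine kinase on which microglia and most tissue macrophages depend for survival, and Csf1 encodes one of its ligands; the other ligand is interleukin 34 (Il34). Csf2ra encodes the ligand-binding alpha chain of the receptor for granulocyte-macrophage CSF, and Csf2rb the beta chain that this receptor shares with those of interleukin 3 and interleukin 5. Csf3r encodes the receptor of granulocyte CSF, best known from neutrophils.

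Promoter sequences are shown because PU.1 (gene Spi1) and related factors, which bind a purine-rich core, are known to drive myeloid receptor genes. The RefSeq promoter table (GRCm38.p6, 250 bases before to 50 after each start site) matched Csf1, Csf2ra and Csf3r, and not Csf1r or Csf2rb. The motif GAGGAA was searched on both strands (TTCCTC on the other), and capitals mark its matches in the 100 bases before each RefSeq start site. Of 32851 promoters in the table, 9289 (28.3%) held a match on either strand.
Csf1 (chr3:107760470-107760569, minus strand): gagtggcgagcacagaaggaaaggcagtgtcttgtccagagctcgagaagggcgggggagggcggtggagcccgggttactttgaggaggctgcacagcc
Csf2ra (chr19:61228419-61228518, minus strand): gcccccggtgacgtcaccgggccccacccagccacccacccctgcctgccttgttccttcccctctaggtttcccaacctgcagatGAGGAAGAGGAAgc
Csf3r (chr4:126024559-126024658, plus strand): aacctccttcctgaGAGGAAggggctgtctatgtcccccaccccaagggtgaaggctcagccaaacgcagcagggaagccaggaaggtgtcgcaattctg
Csf2ra held 2 adjacent matches, a run of 12 bases whose first base lay at -14 from the start site. Csf3r held 1 match, at -86, and Csf1 held 0 in its whole 300-base window. The GENCODE spans given below place the starts of Csf3r and Csf2ra elsewhere. That of Csf3r begins at 126024550, so all of its printed bases lie inside it. That of Csf2ra ends at 61228429, so its span takes in part of the printed bases and part of the run. A match is a description of these letters and not a binding site.

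Cells were sorted into classes by raw counts of marker genes, in which none of the CSF genes was used. Microglia-like cells, gated on genes such as P2ry12, Tmem119 and Siglech, numbered 2461 and 1535 (library labelled wildtype first, here and below), with median totals of 3948 and 4353 transcript counts (unique molecular identifiers, UMIs) per cell. Other classes were small: 6 and 11 border macrophage-like cells, 51 and 29 cells high in MHC class II genes, 10 and 32 monocyte-like, 18 and 12 neutrophil-like, 3 and 17 T or NK cell-like, 16 and 8 B cell-like, 46 and 35 Müller glia or astrocyte-like, 16 and 11 rod-like and 12 and 9 bipolar cell-like cells. The sort on CD45 can set these numbers. Ms4a7, a border macrophage gene outside the gates, was counted in 88.2% and 89.7% of the MHC class II-high cells, and P2ry12 in 39.2% and 34.5%. The border gate genes Mrc1 and Pf4 were counted in 43.1% and 44.8% (Mrc1) and 66.7% and 41.4% (Pf4) of them. In microglia-like cells these shares were 1.26% and 2.41% (Mrc1) and 1.79% and 1.76% (Pf4). MHC class II-high and border macrophage-like cells thus shared markers and are not cleanly separate classes. Levels are given as CPM, counts per 1000000 counts of the class, with an exact 95% Poisson interval. Each group had a single library, so nothing was replicated and no test was made. Every interval covers counting error only and treats counts of the same cell as independent. Such intervals are too narrow where a few cells hold most counts. Whether a difference exceeds the spread between mice could not be examined.

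**Figure D1:**
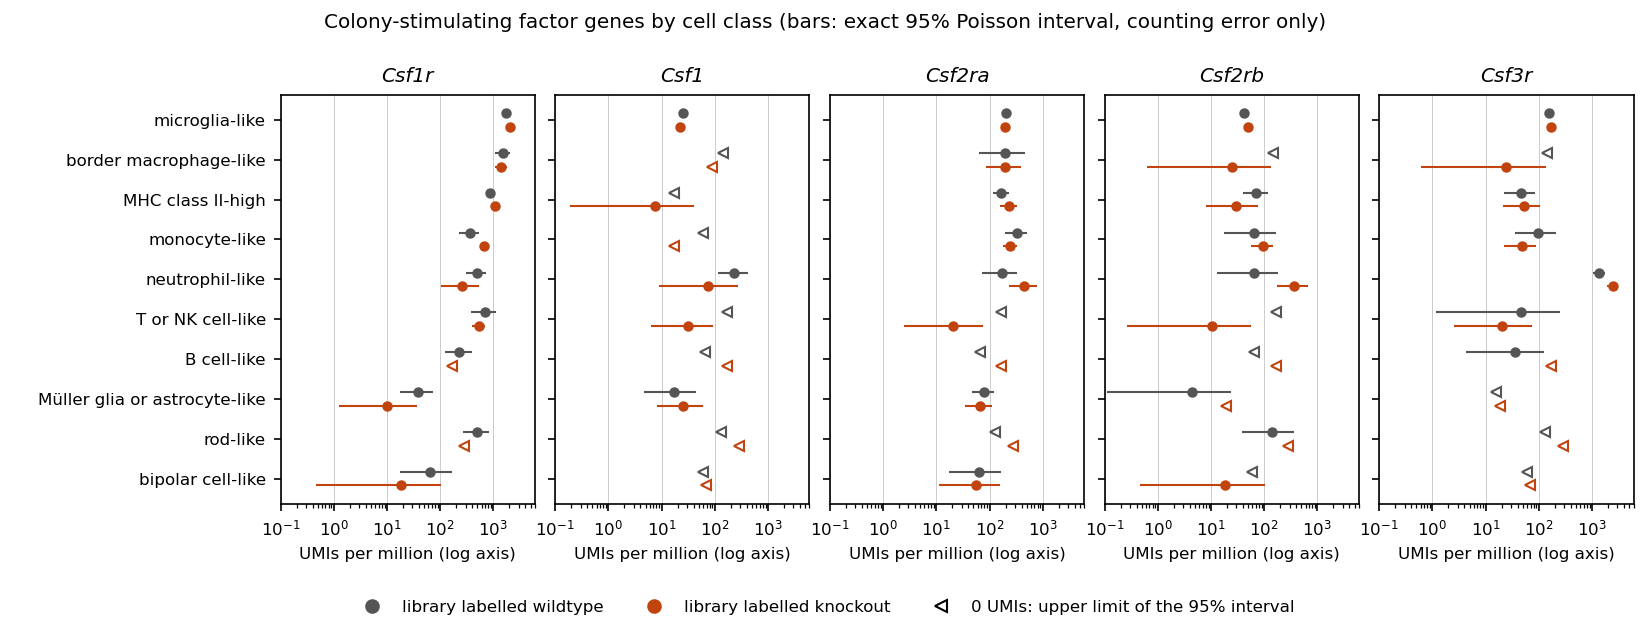
Level of each gene in 10 cell classes, in counts (UMIs) per 1000000 on a log axis, with points for each library, bars for the exact 95% Poisson interval and open triangles at the upper limit where 0 counts were found. Csf1r was at 1757.8 and 2053.6 CPM in microglia-like cells and Csf3r at 1374.7 and 2436.8 CPM in neutrophil-like cells.

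Csf1r was highest in microglia-like cells and stepped down through the other macrophages to monocytes. It stood at 1757.8 CPM (interval 1732.1 to 1783.9) and 2053.6 CPM (interval 2020.1 to 2087.5) in microglia-like cells, from 17779 and 14313 counts. Border macrophage-like cells held 1531.9 CPM (interval 1089.3 to 2094.1) and 1391.3 CPM (interval 1053.8 to 1802.6). Under the wildtype label that interval took in the microglial level; under the knockout label it lay below it. MHC class II-high cells followed at 873.2 CPM (interval 752.2 to 1008.1) and 1055.8 CPM (interval 889.3 to 1244.4), which is 0.497 (interval 0.428 to 0.574) and 0.514 (interval 0.433 to 0.607) of the microglial level of the same library. Monocyte-like cells had 359.0 CPM (interval 225.0 to 543.5) and 679.1 CPM (interval 572.7 to 799.5), 0.204 and 0.331 of the microglial level. The order microglia, MHC class II-high, monocyte was the same in both libraries, with intervals that did not overlap between neighbours. Border macrophage-like cells stood above the MHC class II-high interval under the wildtype label and overlapped it under the knockout label.

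A cell that passed both gates went to the class whose markers had more counts, which left few border cells. Taking every cell with 3 border counts from 2 border genes gave 60 and 47 cells, of which 32 and 28 were microglia-like, with Csf1r at 1186.0 and 1394.8 CPM. Among MHC class II-high cells, a split chosen after the values were seen, Csf1r was 1014.3 CPM in the 20 cells with a P2ry12 count and 690.2 CPM in the 31 without under the wildtype label. Under the knockout label it was 1011.2 CPM in 10 cells and 1107.5 CPM in 19, so the order of these subsets differed between the libraries.

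Csf1r was also the most widely detected of the 5 genes across microglia-like cells. A count was found in 95.8% and 98.1% of them, with a median of 7 and 9 counts per cell, a 5th percentile of 1 in both and a highest cell of 50 and 48. Thinned to 1000 counts per cell, which left out 38 and 23 shallower cells, the shares were 79.1% (interval 77.4 to 80.7) and 85.2% (interval 83.3 to 86.9). Retinal neurons and glia, which should lack Csf1r, gave the background: 8.11% and 5.45% of 74 and 55 cells (median totals 4317.5 and 5452.0), and 2.82% and 2.17% after thinning. The Csf1r gene (21 exons) spans 61100598 to 61132149 on the plus strand of chromosome 18, in GENCODE M21 on GRCm38, the assembly also called mm10. Its last exon, where 3′ reads fall, is overlapped on the opposite strand by Hmgxb3, which had 123 and 75 counts of its own in microglia-like cells.

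Counts of Csf1r outside the myeloid classes sat mostly in cells that also held microglia markers. The 13 Csf1r counts of B cell-like cells under the wildtype label came from 3 of 16 cells, and all 3 held a microglia marker (the gate's list without Sparc), with 36 marker counts between them against 3 in the other 13 cells. The 14 counts of rod-like cells came from 2 of 16 cells, which held 50 marker counts, against 4 in the other 14 cells. Of the 17 T or NK cell-like cells under the knockout label, 9 held Csf1r, and 8 of these 9 held a marker, with 90 marker counts against 3 in the other 8 cells. The 9 Csf1r counts of Müller glia or astrocyte-like cells under the wildtype label came from 2 cells with 27 marker counts. Doublets were not called, and their part in these counts was not tested.

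Csf1, the ligand, was scarce in microglia-like cells and unevenly spread among them. It stood at 25.4 and 21.7 CPM, from 257 and 151 counts, and was found in 6.34% and 5.73% of cells. Thinned shares were 1.28% (interval 0.871 to 1.81) and 1.59% (interval 1.02 to 2.35), against 0 of 71 (interval up to 5.06%) and 1 of 46 retinal neurons and glia (2.17%, interval 0.055 to 11.5). With so few neurons and glia, their intervals are too wide to show whether detection in microglia-like cells exceeded theirs. They are not known to lack Csf1 either: Müller glia or astrocyte-like cells had 17.3 and 25.5 CPM, from 4 and 5 counts. Of the 156 and 88 cells with a Csf1 count, 109 and 61 had 1 count, while 24 and 16 cells had 3 or more and carried 39.7% and 45.0% of all Csf1 counts. A single cell held 16 of the 257 counts (6.23%) in 1 library and 15 of the 151 (9.93%) in the other. The Csf1 gene (9 exons) spans 107741048 to 107760469 on the minus strand of chromosome 3, GRCm38.

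Ligand and receptor were counted in the same cells. Of the cells with a Csf1 count, 153 of 156 (98.1%) and 88 of 88 (100%) held a Csf1r count, close to the share of all microglia-like cells. Il34, the second ligand of the receptor, had 0 and 1 counts in microglia-like cells, and Csf2 and Csf3, which encode the ligands of the other receptors, had 0 in both libraries. The floor of 3 counts for a library's microglia-like cells corresponds to 0.297 and 0.430 CPM. Few Csf1 counts were found in the small classes: MHC class II-high cells had 0 and 1, and monocyte-like and border macrophage-like cells 0 in both libraries. Upper limits were 144.9 and 90.0 CPM in border macrophage-like cells and 60.2 CPM in monocyte-like cells under the wildtype label. These lie above the microglial level, so those 0 counts show no direction. For monocyte-like cells under the knockout label the limit was 17.4 CPM. At 51 cells, 0 counts in MHC class II-high cells of the wildtype-labelled library gave 0.554 of the microglial level by the floor of 3 counts. The interval of this ratio ran from 0 to 0.686. Neutrophil-like cells held 11 and 2 counts (232.6 and 73.8 CPM), in 8 of 18 and 2 of 12 cells. That was 9.16 (interval 4.51 to 16.7) and 3.41 (interval 0.409 to 12.5) times the microglial level, so the second value did not differ from it beyond counting error. Müller glia or astrocyte-like cells held 4 and 5 counts.

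Csf2ra did not differ from its microglial level beyond counting error in border macrophage-like, MHC class II-high or monocyte-like cells, and was also counted in Müller glia or astrocyte-like cells, which held little Csf1r. In microglia-like cells it stood at 205.8 CPM (2081 counts) and 193.3 CPM (1347 counts), in 48.3% and 48.7% of cells, and in 17.1% and 17.5% after thinning. Its level in border macrophage-like cells was 196.4 and 195.3 CPM, in MHC class II-high cells 164.3 and 230.5 CPM and in monocyte-like cells 326.3 and 245.2 CPM. Of these 6 values, each had an interval of its ratio to microglia that took in 1. Neutrophil-like cells had 169.2 CPM from 8 counts and 443.0 CPM from 12 counts, and under the knockout label this was 2.29 times the microglial level (interval 1.18 to 4.02). The Csf2ra gene (12 exons) spans 61223957 to 61228429 on the minus strand of chromosome 19, GRCm38.

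Müller glia or astrocyte-like cells held 18 and 13 Csf2ra counts, in 13 of 46 and 12 of 35 cells. Their level of 78.0 and 66.2 CPM was 0.379 (interval 0.224 to 0.601) and 0.343 (interval 0.182 to 0.588) of the microglial level. Csf1r in the same cells was at 0.0222 and 0.00496 of its microglial level. For each Csf1r count they held 2.0 Csf2ra counts (interval 0.853 to 5.05) and 6.50 (interval 1.47 to 59.3), against 0.117 and 0.0941 in microglia-like cells. Neither interval took in the microglial ratio. Under the wildtype label the 9 Csf1r counts came from 2 cells, so that interval is too narrow, and under the knockout label there were 2 Csf1r counts. The part of microglial RNA in the Csf2ra counts of Müller glia or astrocyte-like cells was not tested. Csf3r had 0 counts there in both libraries, which gave 0.0829 and 0.0908 of its microglial level by the floor of 3 counts (intervals up to 0.102 and 0.112). Thinned shares with Csf2ra were 9.09% and 9.38% of these cells. Bipolar cell-like cells had 4 and 3 Csf2ra counts, and rod-like and B cell-like cells had 0 in both libraries.

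Csf2rb, the shared beta chain, was lower in microglia than in some blood-derived cells. Microglia-like cells had 41.2 CPM (417 counts) and 49.1 CPM (342 counts), in 14.5% and 18% of cells and in 3.80% and 4.50% after thinning. Monocyte-like cells had 65.3 CPM from 4 counts and 94.3 CPM from 20 counts, and only the second, at 1.92 times the microglial level (interval 1.16 to 3.02), differed beyond counting error. Neutrophil-like cells had 63.4 CPM from 3 counts and 369.2 CPM from 10 counts, the second at 7.52 times the microglial level (interval 3.58 to 14.0). MHC class II-high cells were at 70.4 and 29.7 CPM, on either side of the microglial level and within counting error of it. Of the cells with Csf2ra, 198 of 1188 (16.7%) and 163 of 747 (21.8%) also held a count of Csf2rb, and all 4 receptors were counted together in 4.71% and 6.45% of microglia-like cells.

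The Csf2rb gene (15 exons) spans 78325752 to 78353847 on the plus strand of chromosome 15, GRCm38. Its neighbour Csf2rb2, a mouse copy of the chain specific to interleukin 3, had 155 and 104 counts (15.3 and 14.9 CPM) in microglia-like cells. Of the 50-base words of the Csf2rb transcript, 18.4% occur in Csf2rb2, but 0% of those in its last 500 bases do. The values of the pair are uncertain as far as the counting could split shared reads.

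Csf3r marked neutrophils and, at a lower level, microglia. Neutrophil-like cells had 1374.7 CPM (interval 1060.9 to 1752.1) and 2436.8 CPM (interval 1884.6 to 3100.2), in 15 of 18 and 12 of 12 cells. Microglia-like cells had 156.8 CPM (1586 counts) and 168.3 CPM (1173 counts), in 42.1% and 45.7% of cells and in 13.2% and 14.3% after thinning. The neutrophil level was 8.77 (interval 6.73 to 11.2) and 14.5 (interval 11.1 to 18.6) times the microglial level. Csf3r was lower in MHC class II-high and border macrophage-like cells than in microglia-like cells of the same library. MHC class II-high cells had 46.9 and 52.0 CPM, 0.299 (interval 0.143 to 0.552) and 0.309 (interval 0.124 to 0.639) of the microglial level, from 10 and 7 counts. Border macrophage-like cells held only 0 and 1 counts, with intervals up to 0.925 and 0.810 of the microglial level. Monocyte-like cells held 6 and 10 (97.9 and 47.2 CPM). The first was 0.624 of the microglial level (interval 0.229 to 1.36), within counting error of it, and the second 0.280 (interval 0.134 to 0.517). Retinal neurons and glia held 0 counts in 74 and 55 cells. The Csf3r gene (17 exons) spans 126024550 to 126044440 on the plus strand of chromosome 4, GRCm38.

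Large differences from microglia were common among all genes. Of genes at 100 CPM or more in 1 of the classes compared, 43.6% and 36.2% were at least 2-fold apart between border macrophage-like and microglia-like cells, 20.8% and 22.9% for MHC class II-high cells, 52.2% and 45.6% for monocyte-like cells, 57.0% and 73.3% for neutrophil-like cells and 61.4% and 63.0% for Müller glia or astrocyte-like cells. Against these shares, a 2-fold difference of Csf1r or Csf3r in any of these classes is not set apart from other genes.

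Between the libraries, the CSF genes of microglia-like cells lay close together. Csf1r was 1.17 times as high under the knockout label (interval 1.14 to 1.19) and Csf2rb 1.19 times (interval 1.03 to 1.38). Csf3r, at 1.07 (interval 0.994 to 1.16), Csf2ra, at 0.939 (interval 0.876 to 1.01), and Csf1, at 0.853 (interval 0.693 to 1.05), did not differ beyond counting error. With cells thinned to 1000 counts the Csf1 ratio was 1.34. Of the 5 genes, 0 were 1.5-fold apart, beside 1.45% of 6225 genes at 20 CPM or more (44 higher and 46 lower). The interval left out 1 for 2 of the 5, beside 31.5% of all genes, a similar share. Their median log2 ratio was 0.10, beside -0.039 over all 6225 genes, of which the middle 90% ran from 0.784 to 1.23. Csf1r and Csf2rb thus lay within the range of most genes.

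**Figure D2:**
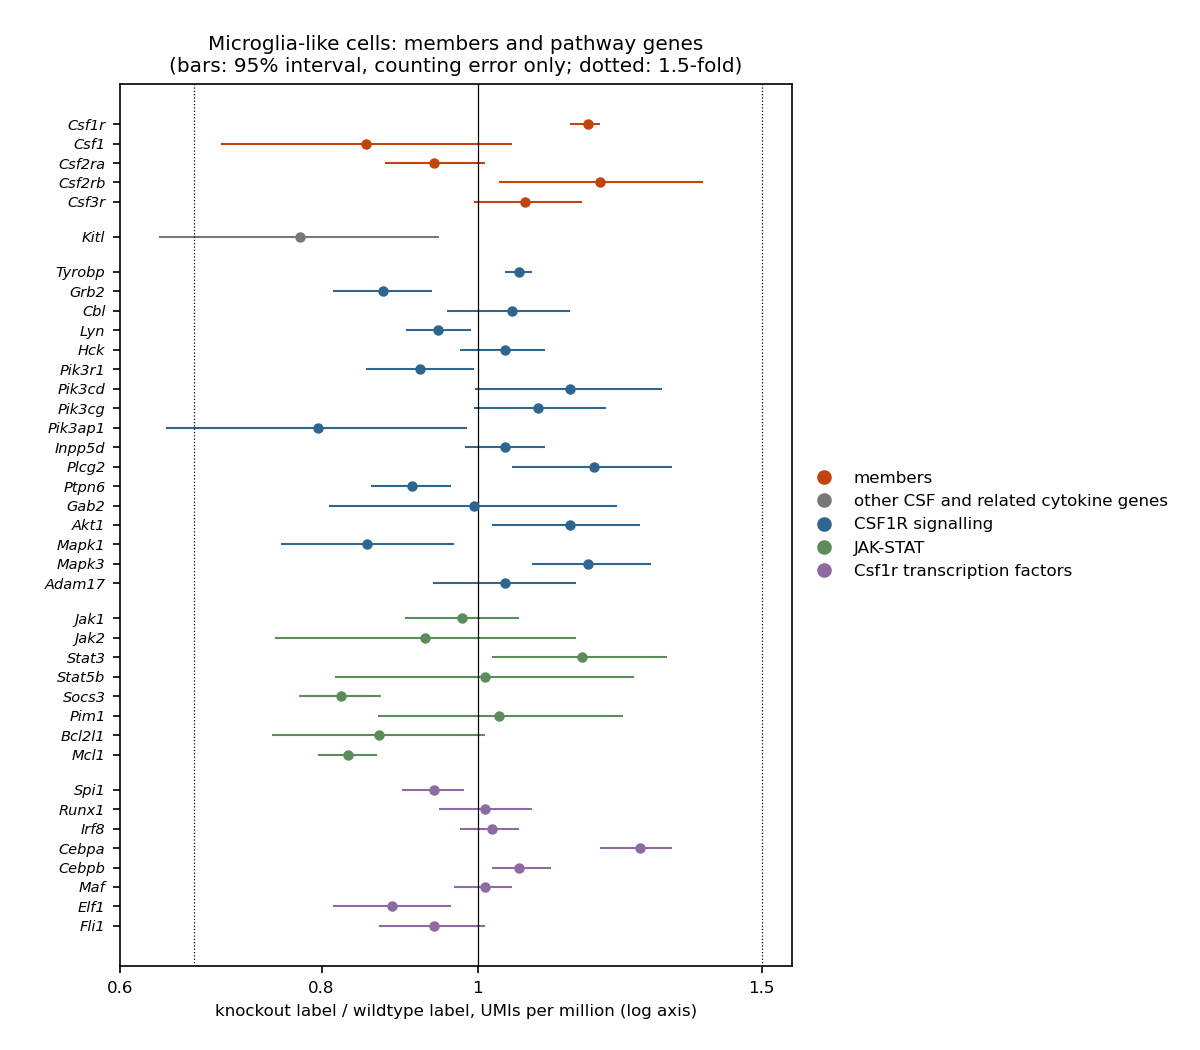
Ratio of the library labelled knockout to the library labelled wildtype in microglia-like cells for the 5 CSF genes and the measured genes of 4 pathway lists, on a log axis, with 95% counting intervals and dotted lines at 1.5-fold. All points lie inside the dotted lines, with Csf1r at 1.17 and Csf1 at 0.853.

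Of the measured pathway genes, 0 were 1.5-fold apart, beside 1.45% of all 6225 genes. Lists this short would hold few such genes at that share, so the 0 says little about them. The median log2 ratio over all genes was -0.039, and counts of list genes above 1 are a description. Of the other CSF and related cytokine genes, 1 of 12, Kitl (the ligand of the Kit receptor), reached 20 CPM in a library, at a ratio of 0.776 (interval 0.634 to 0.946). Csf2rb2 was at 0.974 and Il3ra, the alpha chain of the interleukin 3 receptor, at 1.14 (interval 0.861 to 1.49), both under that level. Of 22 genes of CSF1R signalling, 17 were measured, 0 were 1.5-fold higher or lower, 10 were above 1 and their median log2 ratio was 0.05. The most abundant by mean CPM were Tyrobp (1.06), an adaptor also called DAP12, Lyn (0.945), a Src family kinase, and Inpp5d (1.04), the lipid phosphatase SHIP-1. Ptpn6, the phosphatase SHP-1, was close behind Inpp5d, at a ratio of 0.910. Of 12 JAK-STAT genes, 8 were measured, 0 were past 1.5-fold and 3 were above 1, with a median of -0.07. Mcl1, which encodes a survival protein of the BCL2 family, was at 585.1 and 486.0 CPM (ratio 0.831, interval 0.796 to 0.866). Socs3, a feedback inhibitor of cytokine receptors, was at 310.1 and 254.8 CPM (ratio 0.822, interval 0.775 to 0.871), and the ratio of Jak1 was 0.978.

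Of 9 transcription factors known to act on Csf1r, 8 were measured, 0 were past 1.5-fold and 5 were above 1, with a median log2 ratio of 0.01. The most abundant were Cebpb (1.06), Irf8 (1.02) and Maf (1.01). Cebpa, singled out after its value was seen, had the highest ratio of the list, 1.26 (interval 1.19 to 1.32), from 294.9 and 370.2 CPM. Spi1, the gene of the factor behind the motif shown above, was at 489.6 and 459.6 CPM (ratio 0.939, interval 0.898 to 0.981).

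In the smaller classes, some ratios between the libraries had intervals that left out 1. Those of Csf1r in B cell-like and rod-like cells are given further below. Monocyte-like cells held 22 and 144 Csf1r counts, 1.89 times the level under the knockout label (interval 1.20 to 3.11), from 7 of 10 and 30 of 32 cells. Of the microglia markers, P2ry12 was counted in 0% of the 10 and 9.38% of the 32 cells and Sparc in 0% and 12.5%. With 10 cells a share of 0% has an interval up to 30.8%, which takes in the other shares. The part of microglial RNA in the Csf1r difference was not tested. Neutrophil-like cells had a Csf3r ratio of 1.77 (interval 1.24 to 2.54) and a Csf2rb ratio of 5.82 (interval 1.5 to 32.9), the latter from 3 and 10 counts in 18 and 12 cells. Those with Csf1r, 5 and 6 cells, held 67 and 1 microglia marker counts (the list without Sparc). The part of such RNA in these ratios was not tested. Retinal neurons and glia together had a Csf1r ratio of 0.136 (interval 0.0263 to 0.440), from 27 and 3 counts in 6 and 3 cells. The part of microglial RNA in that ratio was not tested either. No share over all genes is given here for differences between the libraries in the smaller classes, so they cannot be called few or many. The other ratios of the 5 genes that could be formed in border macrophage-like, MHC class II-high, monocyte-like and neutrophil-like cells had intervals that took in 1. In MHC class II-high cells Csf1r was at 1.21 (interval 0.965 to 1.51) and Csf2rb at 0.422 (interval 0.102 to 1.33), the latter from 15 and 4 counts.

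Within microglia-like cells, Csf1r and Csf3r were higher where homeostatic genes were higher in both libraries, and Csf1 was lower there, beyond counting error under the knockout label only. Cells of each library were ordered by the summed share of P2ry12, Tmem119, Siglech, Gpr34, P2ry13, Cx3cr1 and Selplg and divided into 4 equal bins of 615 or 616 (wildtype label) and 383 or 384 cells, which are ranges and not cell types. Csf1r was at 1356.8, 1722.7, 1874.8 and 1995.5 CPM from the lowest to the highest bin under the wildtype label, and at 1334.0, 2114.5, 2168.0 and 2467.6 CPM under the knockout label. Bins were cut within each library and cover different ranges: the highest began at 133.4 and 146.4 counts of these genes per 10000, so bins of the same rank are not matched between libraries. The highest bin was 1.47 (interval 1.40 to 1.54) and 1.85 (interval 1.75 to 1.95) times the lowest. Csf3r was at 101.0 and 178.4 CPM in the lowest and highest bin of 1 library and at 104.7 and 193.6 CPM in the other, ratios of 1.77 (interval 1.5 to 2.09) and 1.85 (interval 1.52 to 2.26). Csf1 went the other way, from 31.1 to 22.6 CPM and from 41.9 to 11.4 CPM, ratios of 0.729 (interval 0.501 to 1.06) and 0.273 (interval 0.154 to 0.464). The difference between these Csf1 ratios was not tested. Shares of cells with a Csf1 count, at unequal depth, were 5.84% and 6.02% in the lowest and highest bin under the wildtype label. Under the knockout label they were 5.47% and 4.44%. Csf2rb was higher in the highest bin, at 1.66 (interval 1.21 to 2.31) and 1.83 (interval 1.28 to 2.65), while Csf2ra was at 1.22 (interval 1.07 to 1.39) and 0.882 (interval 0.749 to 1.04).

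**Figure D3:**
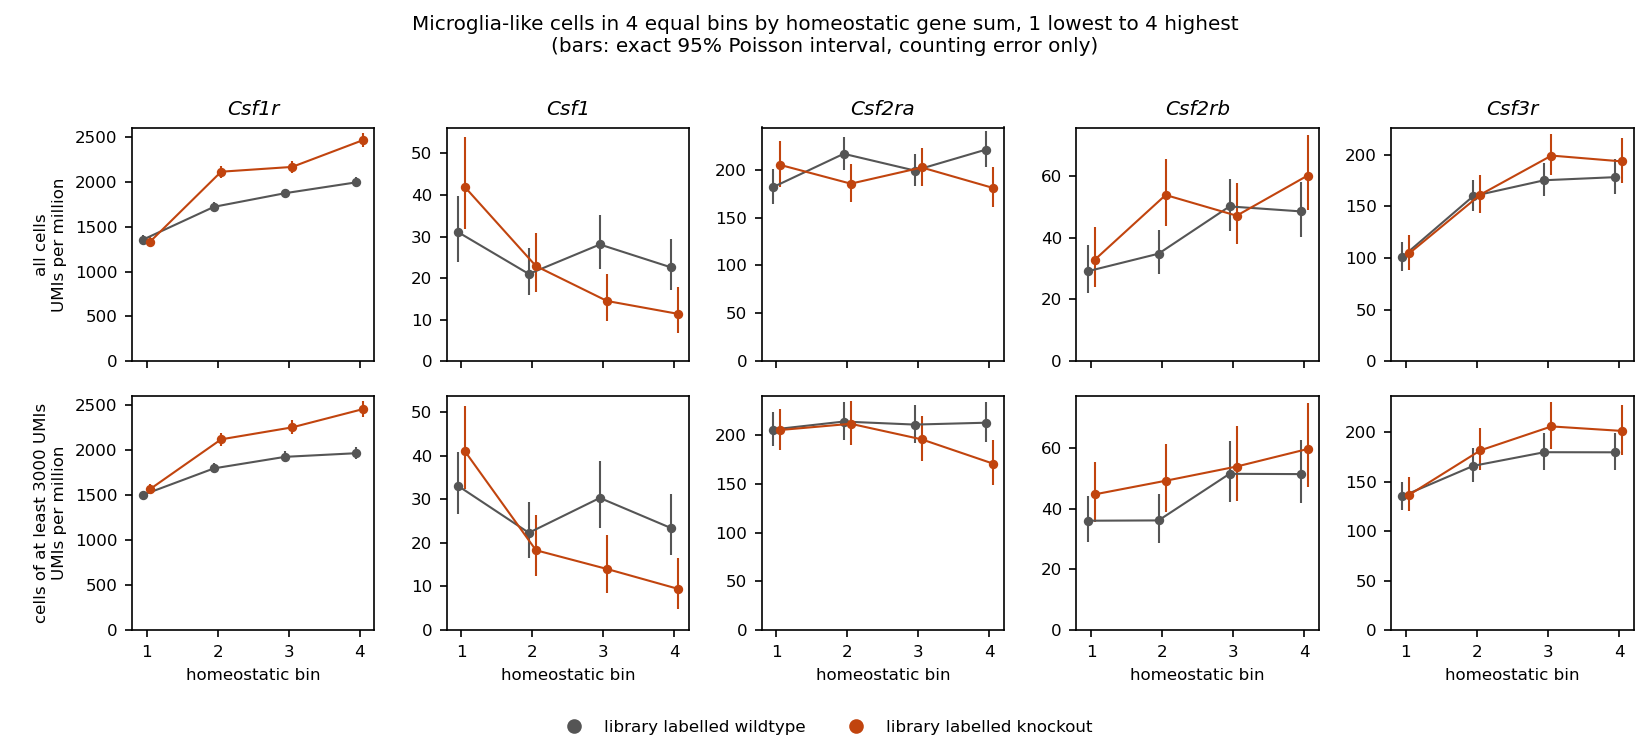
Level of each gene, in CPM, in 4 equal bins of microglia-like cells ordered by 7 homeostatic genes, for all cells (top) and cells of at least 3000 counts (bottom), with exact 95% Poisson intervals. Csf1r went from 1356.8 to 1995.5 CPM and from 1334.0 to 2467.6 CPM across the bins, and Csf1 from 31.1 to 22.6 and from 41.9 to 11.4 CPM.

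The lowest bins held shallow cells, with median totals of 1998.5 and 2073.5 counts against 3915.0 and 4376.0 in the highest. Among cells of at least 3000 counts, an alternative added after the values were seen, median totals of the lowest bins were 5224.0 and 5722.0. The highest-to-lowest ratio of Csf1r was then 1.31 (interval 1.25 to 1.37) and 1.57 (interval 1.49 to 1.65), and that of Csf3r was 1.33 (interval 1.14 to 1.55) and 1.47 (interval 1.23 to 1.76). Csf1 was at 0.708 (interval 0.482 to 1.03) and 0.230 (interval 0.114 to 0.425). For these 3 genes the directions, and whether the interval took in 1, were the same as among all cells. The ratio of Csf2rb was 1.42 (interval 1.06 to 1.91) and 1.34 (interval 0.966 to 1.84), so the second no longer differed beyond counting error. Csf2ra was at 1.03 (interval 0.907 to 1.18) and 0.832 (interval 0.701 to 0.985). When cells were ordered by depth alone, Csf1r was at 1.09 (interval 1.04 to 1.16) and 0.952 (interval 0.896 to 1.01), Csf3r at 1.65 and 1.77 and Csf1 at 3.14 (interval 1.65 to 6.71) and 1.80 (interval 0.985 to 3.59).

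Csf1 was also higher in cells with more of the chemokine transcripts Ccl3 and Ccl4. Its ratio of highest to lowest bin in that order was 1.81 (interval 1.19 to 2.83) and 2.01 (interval 1.18 to 3.60), and 1.73 (interval 1.20 to 2.51) and 2.90 (interval 1.75 to 5.0) among cells of at least 3000 counts. Csf1r was level in this order, at 1.04 and 1.02 among all cells. The higher Csf2ra and Csf3r of the upper chemokine bins (1.24 and 1.40 for Csf2ra, 1.34 and 1.36 for Csf3r) came with a lowest bin of median total 1937.5 and 2097.0 counts. Among cells of at least 3000 counts they were 1.02 and 1.14 for Csf2ra and 0.964 and 1.17 for Csf3r, with intervals that took in 1. When cells were ordered by immediate early genes, known to respond to tissue digestion, the deeper cells gave Csf1 ratios of 1.26 (interval 0.880 to 1.80) and 1.77 (interval 1.10 to 2.93) and Csf1r ratios of 1.05 and 1.09. From the lowest to the highest of these bins, the share of cells with a Csf1 count went from 9.71% to 6.56% under the wildtype label. Under the knockout label it went from 6.96% to 9.16%.

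Microglia-like cells of the Spp1 program held less Csf1r than the other microglia-like cells. These cells, gated on Spp1 (osteopontin), Gpnmb, Fabp5 and Lgals3, numbered 17 and 26 and were deep, with median totals of 8608.0 and 12223.5 counts. No share over all genes was computed for the bins above, for the states or for the cells with Csf1 below. Whether the differences given for them are set apart from other genes was therefore not examined. Csf1r was at 463.9 CPM (interval 358.8 to 590.2) and 550.9 CPM (interval 472.7 to 638.3), 0.261 (interval 0.202 to 0.332) and 0.259 (interval 0.222 to 0.301) of its level in the other microglia-like cells. Csf3r was lower as well, at 0.355 (interval 0.153 to 0.702) and 0.674 (interval 0.472 to 0.935). Csf2ra was higher, at 351.5 and 289.5 CPM, 1.73 (interval 1.28 to 2.28) and 1.53 (interval 1.23 to 1.90) times the level outside the program. Csf1 was at 49.2 CPM from 7 counts in 4 of 17 cells and 84.0 CPM from 27 counts in 8 of 26 cells. Its ratios were 1.96 (interval 0.781 to 4.10) and 4.51 (interval 2.86 to 6.88), so the higher ligand level stood beyond counting error under the knockout label only; the difference between those ratios was not tested. Csf1r in this program was below the MHC class II-high level of the same library and near that of monocyte-like cells, whose intervals overlapped under the wildtype label (225.0 to 543.5 CPM) and, under the knockout label, ran from 572.7 to 799.5 CPM.

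**Figure D4:**
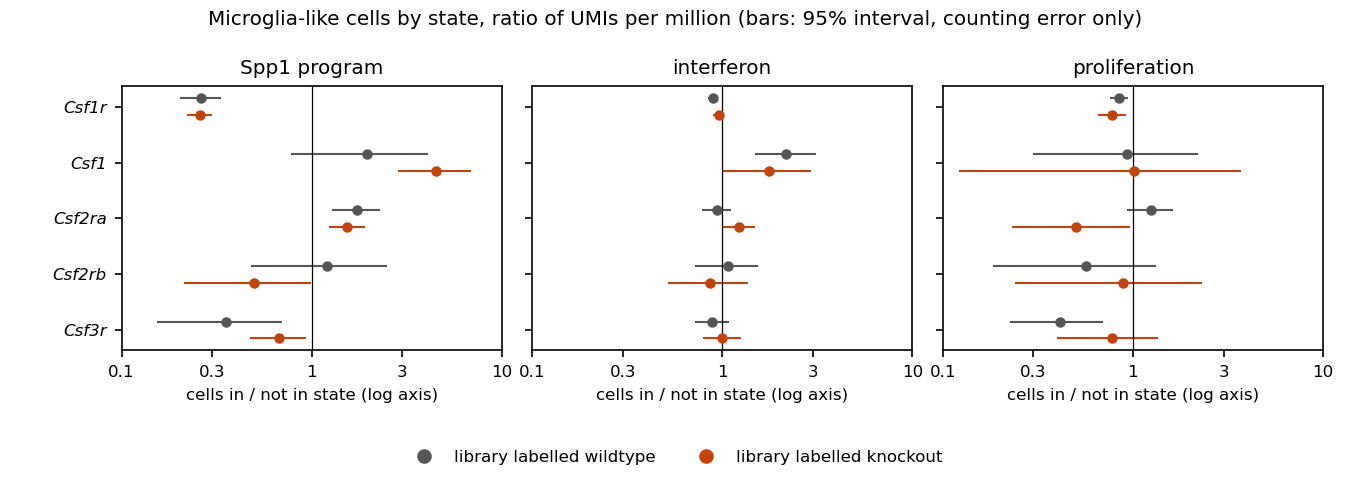
Ratio of the level in cells of 3 microglial states to that in the remaining microglia-like cells, on a log axis with 95% counting intervals, for each CSF gene and library. In the Spp1 program Csf1r lies at 0.261 and 0.259 and Csf2ra at 1.73 and 1.53.

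Cells of the interferon state (129 and 86 cells, gated on genes such as Ifit1 and Isg15) were nearer to the rest. Csf1 was at 51.1 and 36.3 CPM there, 2.17 (interval 1.48 to 3.1) and 1.76 (interval 0.997 to 2.93) times the level in other microglia-like cells. Csf1r was at 0.897 (interval 0.844 to 0.953) and 0.958 (interval 0.895 to 1.02). In proliferating cells (31 and 15 cells), Csf1r was at 0.845 (interval 0.754 to 0.945) and 0.779 (interval 0.658 to 0.917), and Csf3r at 0.416 (interval 0.227 to 0.700) and 0.776 (interval 0.400 to 1.36). The ratio of Csf2ra lay on either side of 1 in these cells, at 1.24 and 0.505.

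Genes whose levels followed each CSF gene most closely were ranked by Pearson correlation of log2(CPM + 10) over 6 points, the microglia-like, MHC class II-high and Müller glia or astrocyte-like cells of each library, among 5757 genes. The points share libraries and cells of very different kinds, so high values are common and are a description only. For Csf1r the closest were Frrs1 (0.9996), Nfkb1, Pla2g15, Pld4 and Cx3cr1 (0.9983). For Csf3r they were P2ry13 (0.9996) and Olfml3, which are gate markers of microglia, with Pgd, Itgb2 and Bin1 (0.9976). For Csf2ra they were Ccnl1 (0.9970), Abraxas2, 9930111J21Rik2, Prcp and Gm10138, for Csf2rb Rps2 (0.9913), Ctsa, Eef1b2, Arl4c and Slfn2, and for Csf1 1110032A03Rik (0.9926), Atp6v0a1, Mettl23, Celf2 and Nop58.

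Microglia-like cells with a Csf1 count differed from those without one in other genes. The genes below were ranked after the values were seen, from 3112 genes at 50 CPM or more, by the smaller of the ratios in the 2 libraries. Cst7, which encodes cystatin F, an inhibitor of lysosomal cathepsins, was first, at 277.9 against 35.5 CPM under the wildtype label and 273.2 against 35.9 CPM under the knockout label. The ratios were 7.84 (interval 6.61 to 9.28) and 7.61 (interval 6.18 to 9.36). Only 15.4% and 15.9% of the cells with Csf1 held a Cst7 count, beside 7.20% and 5.87% of the others, so a minority of cells carried most of the difference. Without cells of the Spp1 program the ratios were 3.74 (interval 2.91 to 4.77) and 2.52 (interval 1.52 to 4.0). The next were Cox6a2, Fabp5 (a fatty acid binding protein and a gate gene of the Spp1 program), Plekho2, Plaur (the urokinase receptor), Pld3, Herc6, Slfn5, Lyst and Lgals3bp, with lower ratios from 1.68 for Lgals3bp to 3.09 for Cox6a2.

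Cells with a Csf1 count were deeper, with median totals of 4735.0 and 5766.0 counts against 3893.0 and 4256.0. Restricted to cells of at least 4000 counts (111 and 71 with Csf1, 1079 and 801 without), the Cst7 ratios were 8.67 and 7.77. These deeper cells are part of the cells that ranked the genes, so their values are a description. Csf1r was lower in the cells with Csf1, at 0.831 (interval 0.779 to 0.884) and 0.865 (interval 0.809 to 0.924). The intervals of Csf2ra, Csf2rb and Csf3r took in 1. Of the 24 and 16 cells with 3 or more Csf1 counts, 0 and 5 belonged to the Spp1 program, and 4 and 8 held Cst7. Under the wildtype label these cells held 12 of the 241 Cst7 counts of all cells with Csf1. Under the knockout label they held 135 of 160. The similar Cst7 ratios thus came mostly from cells with fewer Csf1 counts under the wildtype label, and mostly from the cells richest in Csf1 under the knockout label.

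**Figure D5:**
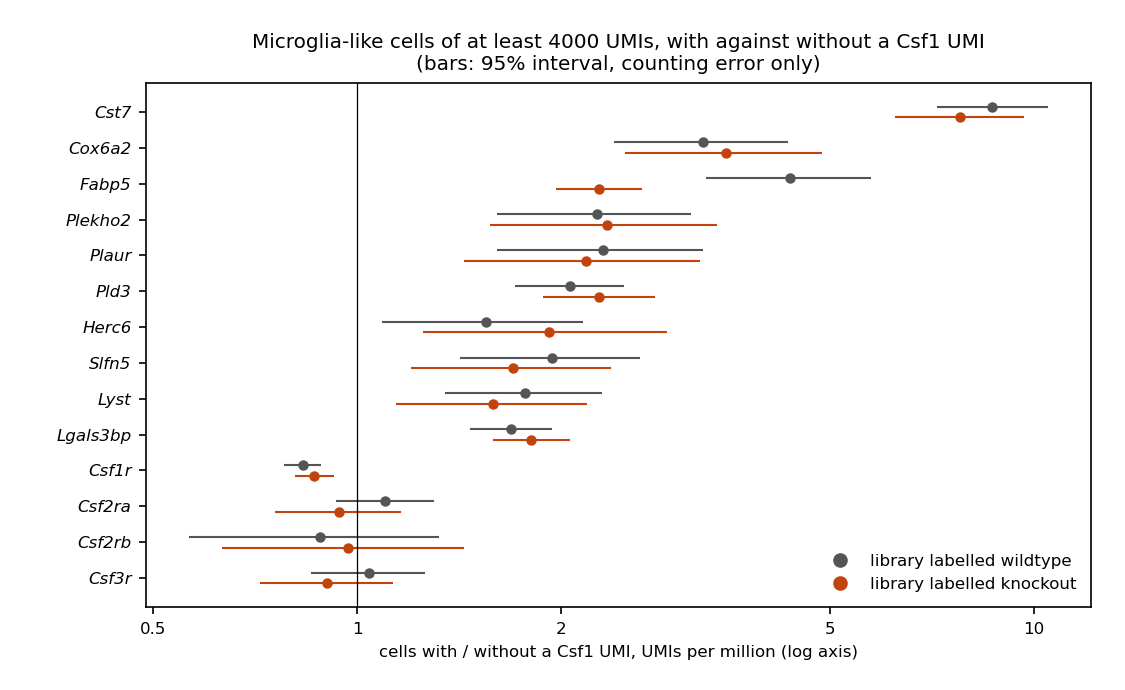
Ratio of the level in microglia-like cells with a Csf1 count to that in cells without one, among cells of at least 4000 counts, on a log axis with 95% counting intervals, for the 10 leading genes and the 4 receptors. Cst7 lies at 8.67 and 7.77 and Csf1r at 0.831 and 0.865.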

How the data were processed

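The authors deposited 1 table of raw counts per library, whole numbers of UMIs per gene and barcode without normalization. Cell Ranger 3.1 and the mm10 build are named in the submitters' processing notes. Per the labels' protocols, CD45-stained retinal cells were sorted and run with a 10x 3′ kit. Barcodes with at least 500 UMIs, 250 genes and at most 15% mitochondrial counts were kept, which removed 40 of 2735 and 24 of 1785. Library totals were 11020717 and 7945713 UMIs. No doublets were called, so doublets must be assumed to remain. Cells were gated on raw marker counts (microglia: at least 3 UMIs from 2 of 9 genes), a cell passing several gates going to the class whose markers led. MHC class II-high cells had at least 10 UMIs of 3 class II genes.

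UMIs were summed per class and library and given as CPM, with exact Poisson intervals, exact Clopper-Pearson intervals for shares and, for ratios, the exact interval of the split of the counts, all 95% and for counting error only (numpy 2.4.6, scipy 1.17.1). The floor was 3 counts, per class and library. Shares were compared after thinning to 1000 UMIs. On simulated counts the ratio intervals held the true value for 95.4% of 5950 unchanged and 92.4% of 197 changed genes of 6147. These shares concern counting error and do not cover the spread between mice. The rule for named genes took the 5 members, the 3 most abundant genes of each pathway list, genes of a list at 1.5-fold or more, gate markers and the 5 genes closest to each member. Members, lists and gates were chosen with earlier results of these data known. Alternatives changed the cell filter, gates, thinning, weighting, scaling and minimum level. From each of 2 lists, the homeostatic genes and the transcription factors, 1 gene was left out after the data were seen and is not reported here.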

Additional observations from a re-analysis of the deposited data

Results flagged for a closer look

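Csf1r ratios between the libraries lay on opposite sides of 1 in some pairs of classes. Csf1r was 1.17 times as high under the knockout label in microglia-like cells and 1.89 times in monocyte-like cells. It was 0.595 in B cell-like cells (interval 0 to 0.845) and 0.470 in rod-like cells (interval 0 to 0.661). These 2 values put the floor of 3 counts in place of the 0 Csf1r counts that both classes had under the knockout label. The differences between these ratios were not tested. The B cell-like and rod-like values rest on 13 counts in 3 cells and 14 counts in 2 cells, all of which also held microglia markers. Barcodes removed by the cell filter from the library labelled wildtype held 7 Csf1r counts in 40 barcodes (195.6 CPM).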

How the results depend on the processing

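Of 214 alternative values, 164 stayed within the counting interval of the reported value (or, for a count of genes, within 1.5 times it) and 50 moved beyond it. Over 9 alternatives the knockout-to-wildtype ratio in microglia-like cells ran from 1.15 to 1.21 for Csf1r, 1.12 to 1.22 for Csf2rb, 1.04 to 1.10 for Csf3r, 0.926 to 1.00 for Csf2ra and 0.744 to 1.34 for Csf1. The Csf1r ratio was 1.2 without the Spp1 program and with median-of-ratios scaling, which multiplied every ratio by 1.0271, and 1.21 thinned or with equal weight per cell. Csf1 was 1.34 when cells were thinned, on the other side of 1 from the reported 0.853, whose interval took in 1. With equal weight per cell, Csf1r over microglia was 0.507 in border macrophage-like cells under the knockout label and 0.425 in MHC class II-high cells under the wildtype label; with both classes joined it was 0.537 under the wildtype label. Genes at least 1.5-fold apart numbered 90, but 27 at 100 CPM, 5390 with no minimum level and 377 when thinned. The median log2 ratio of JAK-STAT genes was -0.27 at 100 CPM. No paired analysis was possible because there was 1 library per group.

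Depth limits most values outside microglia-like cells, where many rest on 0 to 20 counts. The thinned Csf1 share rests on 31 and 24 cells. Doublets, RNA from other cells and the spread between mice were not measured, and gates can move cells between classes. The alternatives with other border gates, with deeper cells only, without the cell richest in Csf1, and for Cst7 without the Spp1 program were chosen after seeing the data.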
